A study of Arabidopsis thaliana with 4 samples.

Results

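The intergenic spacers of the chloroplast genome of Arabidopsis thaliana are the stretches of DNA between neighbouring annotated genes. They were taken as all 50 nt windows that touch no gene interval of the TAIR10 chloroplast annotation. The region of rbcL from 54701 to 56497 and the second copy of the inverted repeat, 128215 to 154478, were left out. The rule gave 660 windows of the 3089 in the genome, which form 94 spacers, each named by the genes on its left and right. A spacer is tandem where both genes lie on 1 strand, divergent where they point away from each other and convergent where they point towards each other. Of the spacers, 64 were tandem (387 windows), 16 divergent (179 windows) and 14 convergent (94 windows). The other 13 gaps between genes held no whole window.

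RNA was immunoprecipitated with an HA-specific antibody from stroma, the soluble part of the chloroplast, and sequenced (RIP-seq). The plants were 2 weeks old and either transgenic for dPPRrbcL or wild-type Col-0 (WT), with 2 libraries in each group. Both groups went through the same precipitation, so WT gives the background of RNA recovered without the transgene. dPPRrbcL is a designed protein of the pentatricopeptide repeat (PPR) family directed at the mRNA of rbcL, the gene for the large subunit of Rubisco. The purpose stated for the series was to test its association with that mRNA and to look for off-targets. The promoter of the transgene, the number of lines and the pooling of plants are not given in the sources used here. Nothing in the labels says that replicates came from separate plantings, so p-values measure the spread between these libraries only.

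Most chloroplast genes are transcribed together as long precursor RNAs, which are then cut and trimmed. The RNA of a spacer can therefore be a 5′ or 3′ untranslated end of a neighbouring mRNA, a stretch that joins 2 coding regions in 1 precursor, or read-through past a gene's end. PPR proteins bind single-stranded RNA in a sequence-specific way, and several of them bind in spacers, where they block exonucleases and so define transcript ends. The deposited coverage is not split by strand. In a convergent or divergent spacer it therefore cannot be said from which of the neighbouring genes the RNA came, and throughout, the abundance of an RNA and its recovery by the antibody cannot be told apart.

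To show the DNA of the spacers that differed most, 30 bases are given from the window with the largest change in each of 8 spacers. They are the plus strand of chromosome Pt in RefSeq's TAIR10.1 sequence, 5′ to 3′, and the first 6 lines belong to the spacers with the largest rises. The last 2 belong to spacers that fell. Capitals mark the longest exact stretch that the 30 bases share, on either strand, with the 200 bases before the rbcL start codon.
rpl22-rps19, 83962 to 83991: tcactcaaaaaAAATCTATattcatttttt
ndhH-rps15, 123221 to 123250: aattagatttctgAATAAAGAAgtttatca
trnR-atpA, 9711 to 9740: attatatataatATCTATTtcgaaaaaaga
psbM-trnD, 29351 to 29380: aacgaGTTAATTtttcttacgagtttttta
rps12-clpP, 69761 to 69790: ttctaaccggcTAATTCTGAattacttctc
atpI-rps2, 14901 to 14930: ttttttctctCTTTTTCttttctacaattc
rrn16S-trnI, 102654 to 102683: aggtcggaacaAGTTGATAggatccccttt
trnN-ycf1, 109151 to 109180: agtTTCCTtcgtaacccccggaacttcttc
The stretches in capitals were 7 to 9 bases long in the 6 spacers that rose, and 8 and 5 bases long in rrn16S-trnI and trnN-ycf1. The 6 spacers that rose were made mostly of A and T, as spacers in general were. Over all 660 windows the longest shared stretch had a median of 8 bases, against 8 in the windows called higher and 7 in those called lower. A stretch of at least 10 bases occurred in 6.97% of all spacer windows, 6.50% of the higher windows (8 of 123) and 7.69% of the lower windows (3 of 39). This is a search for letters only and says nothing about binding.

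Coverage is given in reads per nucleotide (reads/nt), always for replicate 1 and then replicate 2. Over the whole chloroplast it averaged 12167 and 12762 reads/nt for dPPRrbcL, against 12917 and 10373 for WT. The rRNA genes took 90.3 and 91.4% of it in dPPRrbcL and 98.8 and 98.4% in WT. The gene rbcL, the target, had 24398 and 22189 reads/nt in dPPRrbcL and 674 and 777 in WT. The number of reads is unknown, so precision rests on the 2 libraries per group. The log2 ratio of the replicates over spacer windows had an SD of 0.261 in dPPRrbcL and 0.814 in WT, so the WT values were the less reproducible.

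By the median window, spacers were covered less than genes in all 4 libraries, and least where the flanking genes diverge. The median spacer window had 77.2 and 71.7 reads/nt in dPPRrbcL and 2.80 and 2.95 in WT. The median protein-coding window (1446 windows outside rbcL and the second repeat copy) had 216 and 209 in dPPRrbcL and 12.5 in each WT library. Tandem spacers, many of which lie inside operons, had medians of 154 and 135 in dPPRrbcL and 5.14 and 4.72 in WT. Convergent spacers, where the ends of 2 genes face each other, had 53.2 and 51.6 in dPPRrbcL and 2.00 in each WT library. Divergent spacers, which hold the starts of 2 genes, had 28.7 and 23.5 in dPPRrbcL and 1.74 and 1.36 in WT. By medians the order tandem, convergent, divergent was the same in all 4 libraries. By means, convergent spacers were the lowest, at 219, 192, 6.93 and 7.03 in the same order of libraries, against 336, 314, 19.5 and 22.9 in divergent spacers. The mean spacer window of WT, 158 and 127 with the rRNA operon, exceeded the mean protein-coding window, 88.5 and 107. Outside the rRNA operon the WT mean was 23.1 and 28.2, below that of protein-coding windows. The operon's spacers hold the 5S rRNA sequence, which is annotated in the second repeat copy only. Coverage was 0 in 13 and 23 of the 660 windows in dPPRrbcL and in 195 and 178 in WT. Both WT libraries were at 0 in 125 windows, and both dPPRrbcL libraries in 12.

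**Figure D1:**
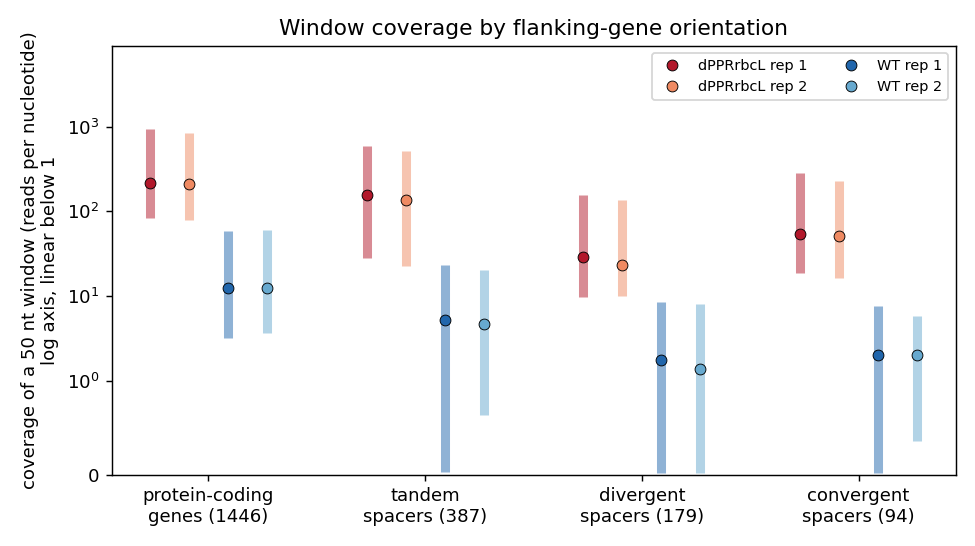
Coverage of 50 nt windows (reads per nucleotide, log axis that is linear below 1) in protein-coding genes and in tandem, divergent and convergent spacers, with the number of windows in brackets. Points are medians and bars the quartiles over windows in each of the 4 libraries. In dPPRrbcL the median falls from 154 and 135 in tandem spacers to 28.7 and 23.5 in divergent ones, and in WT from 5.14 and 4.72 to 1.74 and 1.36.

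Within each library, spacers stood closer to the genes in dPPRrbcL than in WT. The log2 ratio of the median spacer window to the median protein-coding window was −1.52 ± 0.04 in dPPRrbcL and −2.12 ± 0.05 in WT (SD, n = 2 each), a difference of 0.61. The difference was 0.79 for tandem spacers, 0.63 for convergent spacers and −0.01 for divergent spacers, and in the last the groups overlapped. Groups were separate for tandem and convergent spacers. In the exact two-sided permutation test over libraries p was 0.333 for tandem and convergent spacers, the smallest value that 2 libraries against 2 can give, and 1 for divergent spacers. Whether the orientations differ from each other in this was not tested. The tandem difference depended on the summary: as a mean over spacers of equal weight it was −2.38, and −0.38 ± 0.28 outside the rRNA operon.

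Spacers outside the rRNA operon were also set against the mean of their flanking genes, where spacer and both genes had coverage in every library. Those dropped for a flanking gene at 0 in a WT library included psbM-trnD, trnR-atpA, trnT-psbD and trnC-petN, called higher below. psbZ-trnG, not called, was dropped likewise. The 67 spacers left had a median log2 ratio of −0.66 and −0.85 in dPPRrbcL and −1.12 and −1.29 in WT. All values lie below 0, so the typical spacer was covered less than the mean of its 2 flanking genes, and the groups did not overlap. The difference was 0.45 ± 0.18 (exact permutation p = 0.333, two-sided, n = 2 each). Over all spacers outside the rRNA operon, with 1 read per nucleotide added to spacers and genes, it was 0.27. Among the 67 spacers it was 0.59 for 45 tandem, 0.62 for 11 convergent and 0.03 for 11 divergent spacers. Set against the less covered of the flanking genes alone, the median log2 ratio was above 0 in every library. It was 0.26 and 0.23 in dPPRrbcL and 0.32 and 0.08 in WT. The difference was then 0.0423 and the groups overlapped.

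For the share of coverage, the chloroplast sequence was taken without the whole rRNA operon, the rRNA and tRNA genes, the rbcL region and the second repeat copy. Spacers outside the rRNA operon made up 28.6% of it. They held 14.0% of the coverage of that sequence in each dPPRrbcL library and 9.68% in each WT library, a difference of 4.33 percentage points (exact two-sided permutation p = 0.333). With the rbcL region in the denominator the shares were 9.82 and 9.86% against 8.56 and 8.62%. Including the spacers of the rRNA operon turned the direction, with 18.5 and 19.2% in dPPRrbcL against 36.3 and 28.1% in WT.

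**Figure D2:**
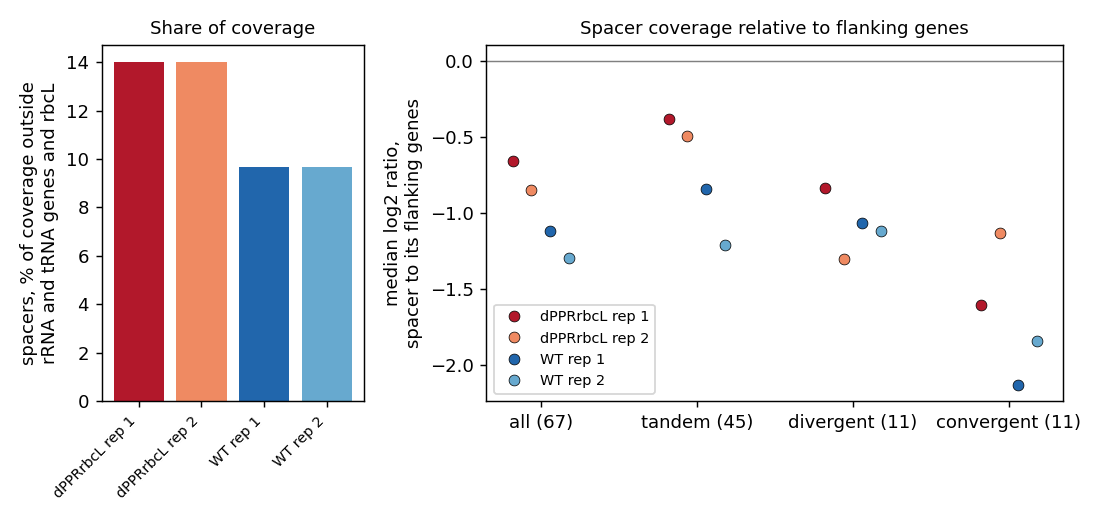
Left, spacers outside the rRNA operon as a percentage of coverage, 1 bar per library. That coverage leaves out the rRNA operon, the rRNA and tRNA genes, the rbcL region and the second repeat copy. Right, median log2 ratio of a spacer's coverage to the mean of its flanking genes, 1 point per library, for all 67 spacers and by orientation. The dPPRrbcL libraries lie above the WT libraries in tandem and convergent spacers. In divergent spacers dPPRrbcL replicate 1 lies above both WT libraries and replicate 2 below them.

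The comparison between groups depends on what the libraries are scaled to. Scaled to the library total, 476 of 479 tested spacer windows were higher in dPPRrbcL and 0 lower (limma with Benjamini-Hochberg adjustment at 0.05). Of all windows tested, 95.2% were higher and 0.701% lower, so the spacers' count lies near the background. The median log2 change was 3.43 for spacer windows and 3.18 for all windows. A second scaling, here called rRNA-free, divides by the mean coverage outside the rRNA and tRNA genes, the rbcL region and the second repeat copy. Only annotated rRNA genes are removed by it. The spacers of the rRNA operon, with the 5S rRNA sequence that is unannotated in the first repeat copy, stay in that mean. This scaling gave a median of 0.93 for all windows. The results that follow scale each library by the median ratio over the windows with coverage in every library, outside the second repeat copy. A change is one relative to the typical window of that kind. Whole spacers are scaled by the same ratio taken over genes and spacers. A pseudocount of 5 was added to the scaled coverage before taking log2, which shrinks the changes of thinly covered spacers.

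On this scale 382 of the 660 spacer windows passed the minimum mean scaled coverage of 10. Of these, 123 (32.2%) were higher in dPPRrbcL and 39 (10.2%) lower, by limma with Benjamini-Hochberg adjustment. Over all 2392 windows tested, 16% were higher and 25.8% lower. Here and wherever all windows are counted, the second repeat copy and the rbcL region are included, so both copies of the repeat count. In protein-coding genes 14.2% of 1212 tested windows were higher and 17.5% lower. The median log2 change was 0.46 in spacer windows, 0.10 in protein-coding windows and −0.04 in all windows. Of the 123 higher windows, 30 had a WT mean under the minimum, passed it only through dPPRrbcL and so could differ in that direction only. Likewise 9 of the 39 lower windows passed it only through WT. In 11 of the 123 the WT libraries had a mean under 1 read per nucleotide. In 76 it was at least 5. With a minimum of 50, 86 of 209 windows (41.1%) were higher and 38 (18.2%) lower, beside 18% and 43.8% of all windows.

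The windows called higher lay in 38 spacers and those called lower in 14. Of the 39 lower windows, 17 lay in trnV-rrn16S or in spacers inside the rRNA operon. Beside the counts by class that follow stand 32.2% higher and 10.2% lower of all tested spacer windows. Of all windows tested, 16% were higher and 25.8% lower. By orientation, 77 of 261 tandem windows were higher and 25 lower, with a median log2 change of 0.38. In convergent spacers 21 of 49 were higher and 2 lower, with a median of 1.29. Divergent spacers had 25 of 72 higher and 12 lower, with a median of 0.04. Spacers between 2 protein-coding genes had 75 of 205 windows higher, 6 lower and a median of 0.82. Where a tRNA or rRNA gene stood on at least 1 side, 48 of 177 windows were higher, 33 lower and the median was 0.04. In the first repeat copy outside the rRNA operon, whose reads also match the other copy, 1 of 43 windows was higher, 14 were lower and the median was −0.39.

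The windows were also counted by their distance from genes. Those within 100 nt upstream of a start had 31 of 94 higher and 12 lower, with a median log2 change of 0.52. Windows within 100 nt downstream of an end had 25 of 85 higher and 6 lower, with a median of 0.43. Farther from genes, 58 of 174 windows were higher and 17 lower, with a median of 0.45. In the same order 33.0, 29.4 and 33.3% were higher and 12.8, 7.06 and 9.77% lower. These shares lie near the 32.2% and 10.2% of all tested spacer windows. Of all windows tested, 16% were higher and 25.8% lower. Base composition varied with the change: median GC content was 28% in the higher windows and 42% in the lower ones, or 38% in lower windows outside the rRNA operon. It was 24% in windows with too little coverage to test, and 36% in protein-coding windows. Across the 382 tested windows, which share reads with their neighbours, GC content and log2 change had a Spearman rho of −0.27. The part of base composition in the changes was not tested.

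Averaged over each spacer and fitted together with all genes, 71 of the 94 spacers could be tested. Of these, 25 were higher in dPPRrbcL and 15 lower, and 31 were not called (limma, Benjamini-Hochberg adjustment). Over the 180 genes and spacers tested, 23.3% were higher and 31.1% lower, and of the 109 genes, 17 were higher and 41 lower. The genes include rbcL and those of the second repeat copy. The spacers' median log2 change was 0.14, that of genes −0.21. Tandem spacers had 16 higher and 12 lower, divergent spacers 3 and 3, and convergent spacers 6 and 0. Of 60 spacers whose flanking genes were both tested, 23 had a larger log2 change than either gene, 9 a smaller one and 28 lay between. Relative to the library total, 81 of 82 spacers tested were higher and 0 lower, beside 95.9% and 0% of genes and spacers.

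**Figure D3:**
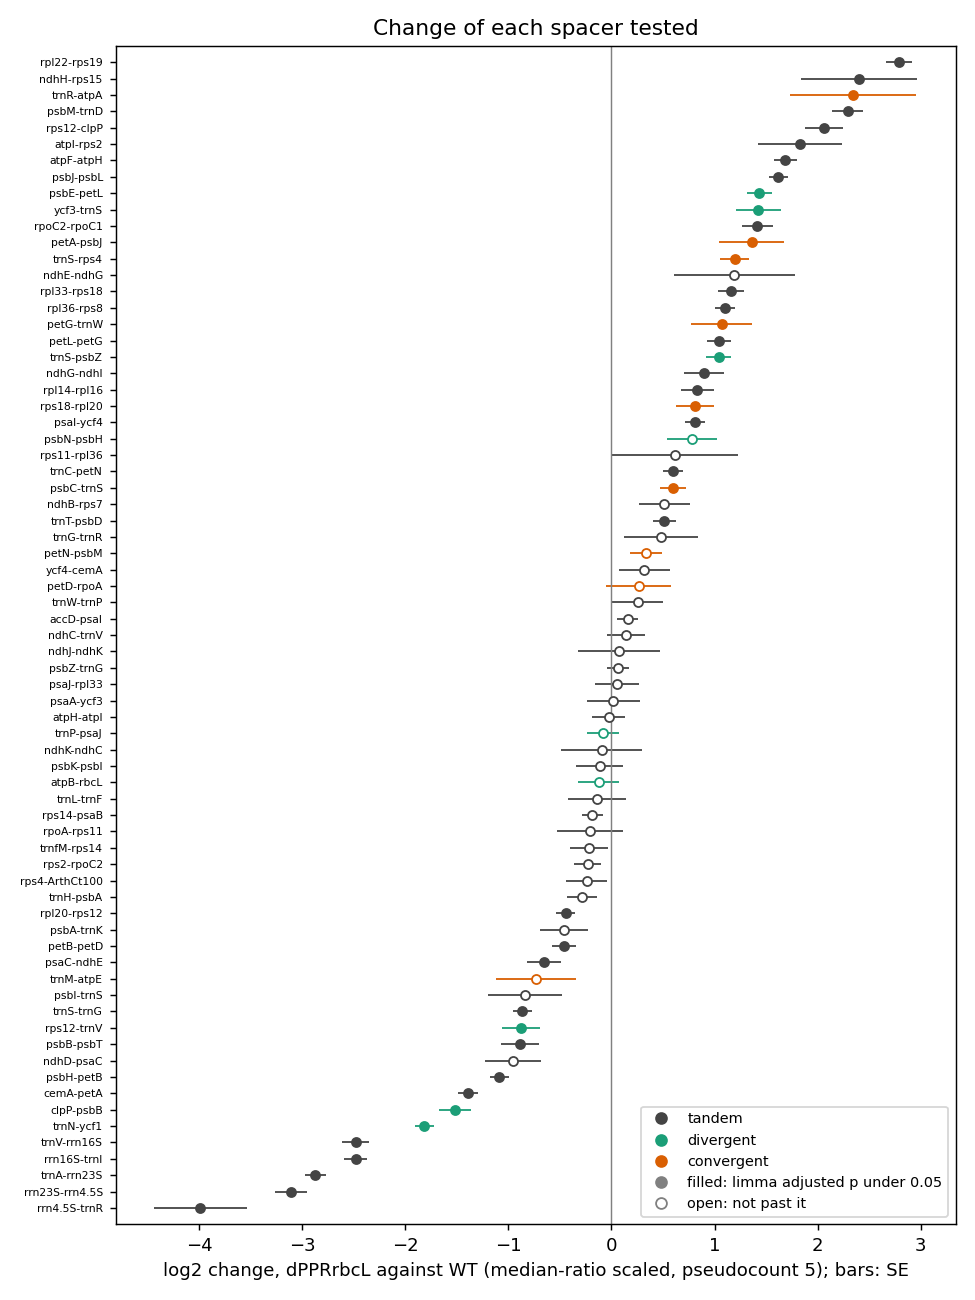
Log2 change of each of the 71 tested spacers, dPPRrbcL against WT, after median-ratio scaling, with the standard error of the limma model. Filled points passed an adjusted p of 0.05, and colours give the orientation. From the right, 25 filled points lie above 0 and 15 below it. Scaled to the library total, the changes of all 71 were above 0.

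The 6 largest rises were in spacers of ribosomal protein, ATP synthase, NDH and photosystem II genes. Between rpl22 and rps19, genes of ribosomal proteins of the large and small subunit, the single window had 204 and 172 reads/nt in dPPRrbcL and 0.36 and 0.68 in WT. The log2 change was 2.79 ± 0.13 (SE, adjusted p = 0.00106 by limma). This spacer passed the minimum only through dPPRrbcL, as did psbM-trnD, ndhH-rps15 and trnC-petN among the 25 higher spacers, so for these 4 a rise was the direction that the filter allowed. The flanking genes of rpl22-rps19 changed by 0.64 and 0.30 and were not called. In rps12-clpP, between a ribosomal protein gene and that of a protease subunit, coverage was 617 and 523 in dPPRrbcL and 7.58 and 6.15 in WT. That spacer rose by 2.06 ± 0.18 (adjusted p = 0.0024, limma). The log2 change of rps12 beside it was −0.47 and not called, and clpP fell by 1.17.

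Between atpI, a subunit of the membrane part of ATP synthase, and rps2, coverage was 458 and 463 reads/nt in dPPRrbcL and 9.31 and 4.42 in WT. The log2 change was 1.83 ± 0.40 (adjusted p = 0.0264, limma). In trnR-atpA, where a tRNA gene and the gene of the ATP synthase alpha subunit converge, coverage was 316 and 218 in dPPRrbcL and 4.08 and 0.665 in WT. It rose by 2.34 ± 0.61 (adjusted p = 0.0411, limma), while atpA fell by 1.00. ndhH-rps15, next to a gene of the NADH dehydrogenase-like complex, had 176 and 162 in dPPRrbcL, 2.12 in WT replicate 1 and 0 in WT replicate 2. It rose by 2.40 ± 0.57 (adjusted p = 0.0309, limma). The dPPRrbcL libraries lay above the WT libraries in each of these spacers, which after scaling was a condition of their being named. With a pseudocount of 1, the rises of ndhH-rps15 and trnR-atpA were no longer called (adjusted p = 0.089 and 0.0701, limma), and without the minimum that of trnR-atpA was not (adjusted p = 0.0513). Their size moved with single libraries: leaving out each in turn gave 1.64 to 3.16 for ndhH-rps15, 1.54 to 3.15 for trnR-atpA and 1.30 to 2.37 for atpI-rps2.

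The spacer between psbM, a small subunit of photosystem II, and the tRNA gene trnD was the longest of the 6 with the largest rises, with 19 windows. Coverage was 276 and 235 reads/nt in dPPRrbcL and 2.21 and 1.80 in WT, and the log2 change was 2.29 ± 0.15 (adjusted p = 0.00143, limma). All 13 windows that could be tested were higher, but 6 of them had a WT mean under the minimum and passed it only through dPPRrbcL, so their direction was fixed by that filter. Next to psbM, in the window from 28851, coverage was 858 and 729 in dPPRrbcL and 7.84 and 5.46 in WT. It was 364 and 283 in dPPRrbcL in the window from 29351. Both WT libraries were listed at 0 there, and from there to the end of the spacer. Beside trnD, in the window from 29751, it was 6.28 and 3.96 in dPPRrbcL. psbM is transcribed away from this spacer, so the covered side is its 5′ side. The gene psbM had 421 and 316 reads/nt in dPPRrbcL and 2.23 and 1.60 in WT, a log2 change of 2.82. trnD had 2.61 and 2.18 in dPPRrbcL and 0 in both WT libraries.

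**Figure D4:**
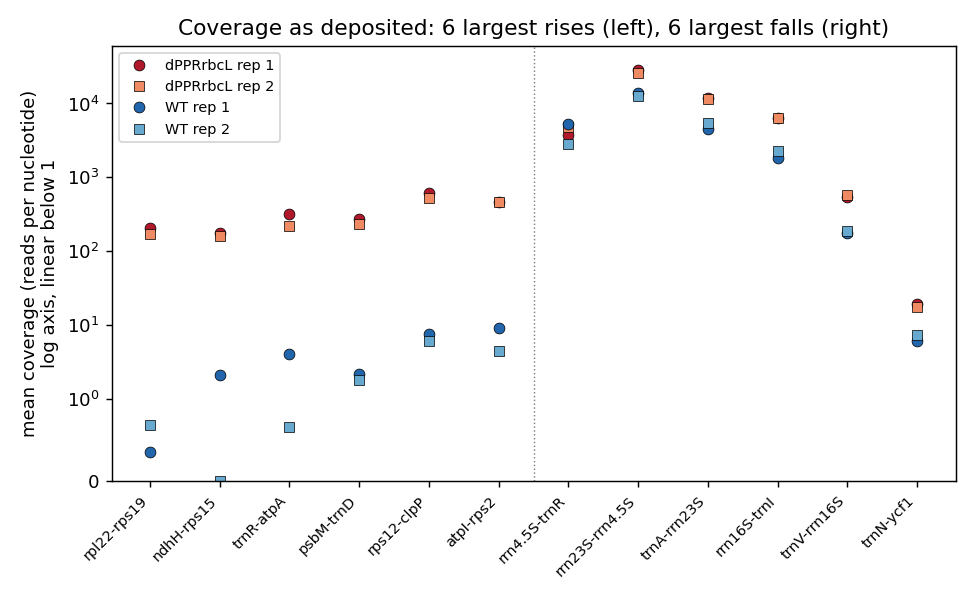
Mean coverage as deposited (reads per nucleotide, log axis that is linear below 1) in each library, for the 6 spacers with the largest rises and the 6 with the largest falls after median-ratio scaling. On the left every dPPRrbcL library lies above both WT libraries, which after scaling was a condition of the choice. On the right the unscaled dPPRrbcL values also exceed the WT values except in rrn4.5S-trnR, and scaled to the library total all 12 changes are above 0.

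Of the other convergent spacers, petA-psbJ and trnS-rps4 were also higher. petA encodes cytochrome f and psbJ a small subunit of photosystem II. Coverage of petA-psbJ was 291 and 273 reads/nt in dPPRrbcL and 7.21 and 4.12 in WT, with a log2 change of 1.36 ± 0.31 (adjusted p = 0.0295, limma). Along it, dPPRrbcL coverage was highest near the end of petA, at 743 and 648 in the window from 62651 and 730 and 679 in the next one. It fell to 40.6 and 40.0 in the window from 63101 and rose again to 291 and 280 beside psbJ. WT coverage had no window above 25.5. In trnS-rps4, between a tRNA gene and that of a ribosomal protein, coverage was 399 and 359 in dPPRrbcL and 9.12 and 8.34 in WT. Its log2 change was 1.20 ± 0.14 (adjusted p = 0.00436, limma), and 5 of its 5 windows were higher, while rps4 itself fell by 1.28.

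Among divergent spacers, psbE-petL rose, clpP-psbB and rps12-trnV fell and atpB-rbcL was split along its length. psbE encodes a subunit of cytochrome b559 and petL a small subunit of the cytochrome b6f complex. Coverage of psbE-petL was 189 and 183 reads/nt in dPPRrbcL and 3.27 and 3.04 in WT, with a log2 change of 1.43 ± 0.12 (adjusted p = 0.00229, limma). Most of it lay beside the start of psbE, where the window from 64351 had 2946 and 2860 in dPPRrbcL and 31.8 and 44.7 in WT. In the middle, in the window from 65101, dPPRrbcL had 8.42 and 10.5 and both WT libraries were listed at 0. Beside petL it was 157 and 134 against 2.12 and 5.62, and that window was not called (adjusted p = 0.061, limma).

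The spacer atpB-rbcL holds the 5′ sides of the ATP synthase beta subunit gene and of the targeted gene, and its windows nearest rbcL belong to the region left out. Its 10 windows averaged 762 and 663 reads/nt in dPPRrbcL and 34.9 and 56.3 in WT, a log2 change of −0.13 ± 0.20 (adjusted p = 0.63, limma). The average covered a graded profile. In the window from 54201, beside atpB, coverage was 1291 and 1175 in dPPRrbcL and 113 and 161 in WT, a log2 change of −0.67 that was not called. In the window from 54451, nearer rbcL, it was 624 and 568 in dPPRrbcL and 6.90 and 3.82 in WT, a log2 change of 2.68. All 5 windows from 54401 to 54650 were higher and none of the 4 nearer atpB was called. The remaining window, the one nearest rbcL, was too thinly covered to be tested. Without WT replicate 1 the average was called lower, at −0.36. On the other side of rbcL, rbcL-accD had 19.98 and 11.9 in dPPRrbcL and 2.80 and 2.02 in WT, too little for the spacer to be tested.

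In clpP-psbB, upstream of psbB, the gene of the photosystem II antenna protein CP47, coverage was 1008 and 978 reads/nt in dPPRrbcL and 137 and 199 in WT. On the log2 scale it changed by −1.52 ± 0.16 (adjusted p = 0.00362, limma), and psbB changed by −1.37. The last window before psbB had 4689 and 4724 in dPPRrbcL and 799 and 1219 in WT. Under the rRNA-free scaling the change of clpP-psbB was −0.22 and not called, and scaled to the library total it was 2.45. rps12-trnV, the longest spacer with 38 windows, lies in the repeat. It had 204 and 218 in dPPRrbcL and 24.8 and 21.5 in WT, a log2 change of −0.88 ± 0.18 (adjusted p = 0.0225, limma), and was 0.35 and 2.84 under the rRNA-free and the library total scaling. Without dPPRrbcL replicate 1 or 2 it was no longer called (adjusted p = 0.117 and 0.0595, limma).

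**Figure D5:**
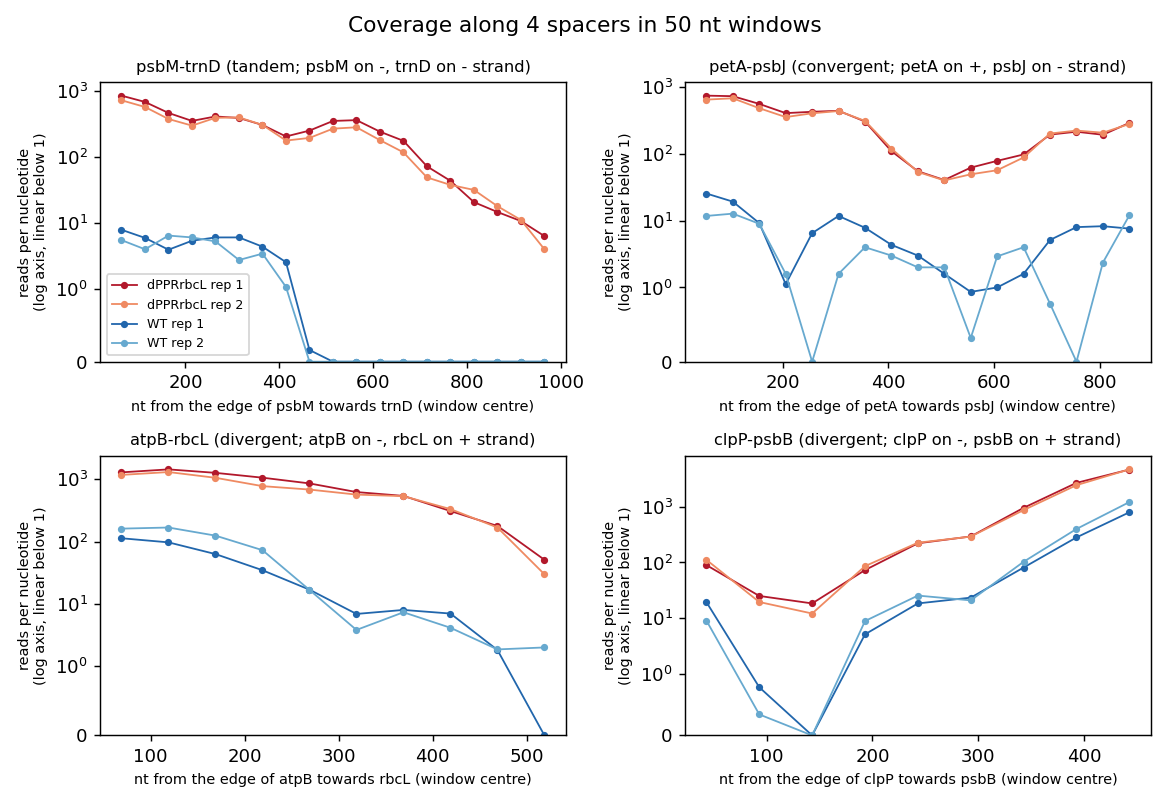
Coverage of 50 nt windows (reads per nucleotide, log axis that is linear below 1) against the distance of the window centre from the gene on the left, in psbM-trnD, petA-psbJ, atpB-rbcL and clpP-psbB, 1 line per library. In psbM-trnD the WT lines reach 0 in a window where dPPRrbcL has 364 and 283, and dPPRrbcL falls to 6.28 and 3.96 beside trnD. In clpP-psbB all 4 lines climb from the middle towards psbB, to 4689 and 4724 in dPPRrbcL and 799 and 1219 in WT.

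The spacers of the rRNA operon and the one before it fell most after median-ratio scaling. All 15 windows inside the operon, from 101012 to 108069, were lower, with a median log2 change of −2.49. Scaled to the library total, 12 of the same 15 windows were higher, with a median of 1.26. In rrn16S-trnI, between the 16S rRNA gene and a tRNA gene, coverage was 6450 and 6263 reads/nt in dPPRrbcL and 1806 and 2286 in WT. The log2 change of this spacer was −2.48 ± 0.11, and that of trnA-rrn23S −2.87 ± 0.10 (both adjusted p = 0.00106, limma). In rrn23S-rrn4.5S coverage was 27930 and 25575 in dPPRrbcL and 13892 and 12486 in WT, a log2 change of −3.11 ± 0.16. rrn4.5S-trnR had 3696 and 4778 in dPPRrbcL and 5241 and 2795 in WT, so that the groups overlapped before scaling, and its log2 change was −3.99 ± 0.45. The 5S rRNA gene is annotated in the second repeat copy only, and 4 windows of rrn4.5S-trnR hold the same sequence. The rRNA genes 16S, 23S and 4.5S changed by −3.54, −4.17 and −3.57, more than rrn16S-trnI and trnA-rrn23S between them.

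Before the operon, trnV-rrn16S, which holds the promoter region of the rRNA genes, had 535 and 583 reads/nt in dPPRrbcL and 176 and 191 in WT. It fell by 2.48 on the log2 scale (adjusted p = 0.00106, limma). Beyond the operon, trnN-ycf1 was thinly covered, with 19.1 and 17.5 in dPPRrbcL and 6.13 and 7.36 in WT. Its log2 change was −1.81 ± 0.09 (adjusted p = 0.00106, limma). Under the rRNA-free scaling it was −0.94 and still called, and scaled to the library total it was 0.91.

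A list of 9 spacers beside which PPR or related repeat proteins are known to bind in Arabidopsis or maize was described next. Of these, 7 held windows and all 7 were tested: 1 was higher, 2 lower and the median log2 change was 0.06. Beside this stand 25 higher and 15 lower of all 71 tested spacers, with a median of 0.14, and 23.3% higher and 31.1% lower of genes and spacers. psbE-petL, described above, was the one that rose. psbH-petB, bound by HCF152, had 2261 and 2191 reads/nt in dPPRrbcL and 254 and 289 in WT. Its log2 change was −1.09 ± 0.09 (adjusted p = 0.00229, limma). petB-petD, between the genes of cytochrome b6 and subunit IV, changed by −0.46 ± 0.12 (adjusted p = 0.0371, limma) with 1910 and 1724 in dPPRrbcL and 125 and 164 in WT. Under the rRNA-free scaling psbH-petB was at 0.22 and petB-petD at 0.84, so both signs turned. Leaving out either dPPRrbcL library, petB-petD was not called (adjusted p = 0.305 and 0.315, limma).

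atpH-atpI and psaJ-rpl33, the targets of PPR10 in maize, were not called. Coverage of atpH-atpI was 491 and 389 reads/nt in dPPRrbcL and 26.5 and 24.3 in WT, a log2 change of −0.03 ± 0.16. psaJ-rpl33 had 359 and 291 in dPPRrbcL and 19.9 and 15.7 in WT, a log2 change of 0.06 ± 0.21. ndhB-rps7, where CRR2 acts, was at 0.51 ± 0.24 (adjusted p = 0.154, limma), with 61.0 and 49.2 in dPPRrbcL and 2.36 and 1.34 in WT. psbN-psbH, next to the binding site of HCF107, was at 0.78 ± 0.24 (adjusted p = 0.0593, limma), with 2389 and 1997 in dPPRrbcL and 82.7 and 62.7 in WT. Leaving out WT replicate 1, psbN-psbH (1.07), ndhB-rps7 (0.82) and psaJ-rpl33 (0.31) were called higher, and leaving out WT replicate 2, psbN-psbH (0.49) was.

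A second list held 16 spacers in common use as markers in plant phylogeny or known as promoter regions. All 16 held windows, 10 were tested, 5 were higher and 1 lower, and the median log2 change was 0.42. Over all 71 tested spacers 25 were higher and 15 lower, with a median of 0.14, and over genes and spacers the shares were 23.3% and 31.1%. The higher ones were psbM-trnD, petA-psbJ, trnS-rps4, trnC-petN and trnT-psbD, and the lower one was clpP-psbB. trnT-psbD, which holds the light-responsive promoter of psbD, a reaction centre protein of photosystem II, had 694 and 725 reads/nt in dPPRrbcL and 26.4 and 29.7 in WT. Its log2 change was 0.51 ± 0.11 (adjusted p = 0.0254, limma) and 10 of its 25 windows were higher. Coverage climbed from 2.00 and 4.56 beside trnT to 3572 and 3571 beside psbD in dPPRrbcL. In WT it climbed from 0 in both libraries to 214 and 264. trnC-petN rose by 0.60 ± 0.10 (adjusted p = 0.0119, limma), with 71.1 and 68.0 in dPPRrbcL and 1.97 and 2.47 in WT. Neither trnT-psbD nor trnC-petN was called when either dPPRrbcL library was left out, with adjusted p from 0.178 to 0.332 by limma.

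The barcode spacer trnH-psbA had 261 and 222 reads/nt in dPPRrbcL and 14.3 and 20.3 in WT. The log2 change there was −0.29 ± 0.14 (adjusted p = 0.172, limma). trnL-trnF, another such marker, was at −0.14 ± 0.28, petN-psbM at 0.34 ± 0.16 and ndhC-trnV, one of the longest tandem spacers, at 0.14 ± 0.18, none of them called. Without WT replicate 1, trnH-psbA (−0.43) and trnL-trnF (−0.50) were called lower, and without WT replicate 2, petN-psbM (0.45) and ndhC-trnV (0.35) were called higher. The other 6 spacers of the second list were too thinly covered to be tested. trnE-trnT had 3.95 and 3.84 in dPPRrbcL and 0.025 and 0.246 in WT. rps16-trnQ had 4.61 and 3.67 in dPPRrbcL and 0 and 0.412 in WT. In ndhF-rpl32, the most covered of them in dPPRrbcL, coverage was 37.3 and 24.7 in dPPRrbcL and 0.827 and 1.02 in WT. Over all 23 untested spacers the highest coverage was 65.2 in dPPRrbcL and 3.49 in WT, so no call was made for them as wholes. Single windows of 6 of them passed the minimum and were called, 3 higher and 4 lower, among them 1 higher window in ndhF-rpl32 and 1 lower window in rbcL-accD.

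Of the spacers outside these rules, atpF-atpH and cemA-petA are named after their values were seen. In atpF-atpH, between genes of subunits of the membrane part of ATP synthase, coverage was 1974 and 1649 reads/nt in dPPRrbcL and 30.1 and 32.2 in WT. The log2 change was 1.69 ± 0.11 (adjusted p = 0.00143, limma), against 0.40 in atpF and 0.36 in atpH, and 9 of its 9 windows were higher. The lowest of these windows in dPPRrbcL, from 12901, still had 817 and 609, against 2.42 and 2.56 in WT. cemA-petA, inside the operon that ends with petA, had 908 and 795 in dPPRrbcL and 121 and 138 in WT. It changed by −1.39 ± 0.09 on the log2 scale (adjusted p = 0.00145, limma) and by −0.09, not called, under the rRNA-free scaling.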

How the data were processed

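Each of the 4 libraries has 1 deposited file that gives a signal, the number of reads over every chloroplast position per the file headers, in whole numbers. Neither headers nor labels record any normalization of it. The mapper, its settings, the genome build and any use of strand are not given in the sources used here. The length, 154478 positions, is that of the chloroplast of TAIR10.1, whose RefSeq annotation (130 distinct gene intervals) and sequence were used. Reads from the inverted repeat copies, 84171 to 110434 and 128215 to 154478, cannot be assigned to 1 copy.

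Mean coverage per 50 nt window, or per spacer over its windows, was divided by a median-ratio factor per library. The factor was taken over windows, or over genes and spacers, with coverage in every library and outside the second repeat copy. A pseudocount of 5 was added and log2 taken. The pseudocount equals 18.8 to 20.8 reads/nt in dPPRrbcL and 1.31 to 1.40 in WT for windows, and 20.4 to 22.1 and 1.13 to 1.30 for spacers. Features with a mean scaled coverage of at least 10 (37.6 to 41.5 reads/nt in dPPRrbcL and 2.62 to 2.79 in WT) were tested with limma 3.58.1 in R 4.3.3. No covariate was used, all windows, or all genes and spacers, were fitted together, and p-values were adjusted by Benjamini-Hochberg at 0.05. The fit was first tested on simulated data. Values free of scaling between libraries were compared by exact two-sided permutation over the 4 libraries. Errors are SDs over libraries or limma's standard errors (SE). Other steps used Python 3.11.15, numpy 2.4.6, pandas 2.3.3 and scipy 1.17.1. Neighbouring positions share reads, so no count test or counting interval was used.

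Named spacers were the 6 largest rises and 6 largest falls among those called with groups that did not overlap after scaling, the 3 with the most windows in each orientation, 2 fixed lists and the rRNA operon. The members, lists and tests were chosen with earlier results of these data known. Alternatives were other scalings, pseudocounts of 1 and 20, other minimums, 100 nt windows, a replicate block, other summaries and leaving out each library.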

Additional observations from a re-analysis of the deposited data

How the results depend on the processing

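Scaling moved the counts most: the median of all windows moved from −0.04 to 3.18 (library total) or 0.93 (rRNA-free). Under these scalings 476 of 479 and 285 of 409 tested spacer windows were higher, 0 and 17 lower, and their median was 3.43 and 1.41. Of all windows tested, 95.2% and 54.1% were higher, and 0.701% and 11.6% lower. Higher calls made up 75.9% of calls under the median ratio, 100% and 94.4% under these. Of 82 and 73 spacers tested, 81 and 58 were higher and 0 and 6 lower. Under the library total 95.9% of genes and spacers were higher and 0% lower. That share is not given for the rRNA-free scaling. Named spacers whose sign turned under the library total were atpB-rbcL (3.75), atpH-atpI (3.76), clpP-psbB (2.45), petB-petD (3.51), psbH-petB (2.91), rps12-trnV (2.84), trnH-psbA (3.38), trnL-trnF (3.25), trnN-ycf1 (0.91), trnV-rrn16S (1.47), rrn16S-trnI (1.54), trnA-rrn23S (1.15), rrn23S-rrn4.5S (0.91) and rrn4.5S-trnR (0.0284). Under the other scaling they were atpB-rbcL (1.16), atpH-atpI (1.23), petB-petD (0.84), psbH-petB (0.22), rps12-trnV (0.35), trnH-psbA (0.93) and trnL-trnF (1.00). The 11 named spacers that had risen kept their direction and call under both. Both scalings moved the median of all windows upwards, so they could hardly have turned a rise.

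Windows of 100 nt, which are fewer, gave 57 higher (34.8%) and 17 lower (10.4%) of 164 tested spacer windows. A minimum scaled coverage of 50 gave 13 spacers higher and 14 lower of 41 tested, with a median of −0.13 in place of 0.14. Shares over all features are not given for these settings, for the replicate block or for the fits that leave out a library. Those counts therefore have no background beside them. Pseudocounts of 1 and 20 moved no count of calls by over 1.5 times. The share of coverage in spacers became −13.4 points (dPPRrbcL minus WT) with the rRNA operon and 1.25 with rbcL in the denominator. The spacer-to-gene difference was 0.0423 against the less covered flanking gene and 0.27 with 1 read per nucleotide added. The tandem difference was −2.38 as a mean over spacers and −0.38 as that mean outside the operon, an alternative added after seeing the data, as was its median there, 0.81. Without a protein-coding reference the tandem, divergent and convergent differences were 4.87, 4.08 and 4.71, and the convergent one as a mean over spacers was 0.67. The causes of these moves were not tested.

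The labels give both groups replicates 1 and 2, but nothing says that a number marks a shared batch. Deviations of same-numbered libraries had a correlation of −0.089 over 2392 windows. With the replicate number as a block, 139 windows and 16 spacers were higher, and 39 and 10 lower. The calls of atpI-rps2, ndhH-rps15, petA-psbJ, trnC-petN, trnT-psbD, petB-petD and rps12-trnV were lost there, with adjusted p from 0.0511 to 0.0941 by limma.

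Leaving out each library, with the lone one assumed to vary like the other group, gave 19 to 195 windows higher and 9 to 85 lower, and a median of 0.45 to 0.48. It gave 17 to 35 spacers higher and 9 to 26 lower. The low counts came without a dPPRrbcL library (19 and 22 windows higher), the high ones without a WT library (195 and 189), whose spread was the larger. The spacer-to-gene difference ranged from 0.36 to 0.55, the share from 4.32 to 4.35 points, and the tandem, divergent and convergent differences from 0.72 to 0.86, −0.18 to 0.17 and 0.625 to 0.627.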
